A study of Mus musculus with 12 samples.

Results

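Dchs1 and 7 Trim genes that lie near the beta-globin cluster on mouse chromosome 7 were followed through 12 testis libraries. The 8 genes were taken by symbol from a table of 20788 genes. They were chosen from earlier results on the same libraries, because several of them were low in the control_5NC group. Levels in control_5NC are therefore given as a description, and tests are given only for comparisons that hold no control_5NC library. All 8 genes were in the table, and 7 of them passed the filter on low counts. Trim12a did not pass.

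The libraries were made from total RNA of F1 mouse testes, and the strain label reads "IRC mouse". Virus was used to raise or to inhibit a long non-coding RNA named lncRNA8276 in the labels. The 4 groups of 3 libraries are overexpression (virus for lncRNA8276 overexpression), knockdown (virus for its inhibition), control_5NC and control_3NC. The labels used here do not spell out 5NC and 3NC, which are taken as controls, and they give no age, genotype or time after virus. Nothing in them ties the 3 libraries of a group to separate animals, so p-values cover only sample-to-sample spread, and this may be technical. In whole testis, fewer cells of a type and less RNA per cell cannot be told apart.

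Trim genes encode tripartite motif proteins, which carry a RING domain that attaches ubiquitin, a B-box, a coiled coil and, in this family, a C-terminal domain that binds targets. The cluster beside beta-globin holds the relatives of primate TRIM5, a protein that binds the capsid of incoming retroviruses, and many of its genes are switched on by interferon. Dchs1 encodes Dachsous, a giant protocadherin that binds Fat4 on the neighbouring cell and orients cells within a tissue through planar cell polarity.

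On GRCm38 with the GENCODE M21 annotation, the 7 Trim genes occupy 289 kb of chromosome 7. Trim6 (104218793 to 104235152) and Trim34a (104244457 to 104262234) lie on the plus strand. Trim5 (104263386 to 104288094), Trim12a (104299894 to 104315466), Trim12c (104338754 to 104353362), Trim30a (104409025 to 104465193) and Trim30d (104470014 to 104507849) follow on the minus strand. Dchs1 (105752990 to 105787654, minus strand) is 1245 kb further on, and Hbb-bs is 391 kb from the other end of the Trim group. All 8 are annotated as protein-coding. Dchs1 has 21 exons and 3291 codons in its longest transcript, while the Trim genes have 284 (Trim12a) to 497 codons (Trim5 and Trim12c).

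The Trim promoters are shown because they separate Trim6 from the rest and because they show how alike some of these genes are. The sequences come from RefSeq on GRCm38.p6, whose promoter table held 7 of the 8 genes. Each runs from 70 bases before to 50 bases after the start site, and capitals mark a match to the interferon-stimulated response element core GAAANNGAAA, searched on both strands. Every match lies on the strand opposite the one shown, so the capitals read as its reverse complement.
Trim6 (chr7:104218725-104218844, plus strand): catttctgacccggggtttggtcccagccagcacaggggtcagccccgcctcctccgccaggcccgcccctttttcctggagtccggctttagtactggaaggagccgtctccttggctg
Trim5 (chr7:104288057-104288176, minus strand): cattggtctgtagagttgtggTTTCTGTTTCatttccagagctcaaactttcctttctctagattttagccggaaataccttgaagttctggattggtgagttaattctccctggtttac
Trim12c (chr7:104353300-104353419, minus strand): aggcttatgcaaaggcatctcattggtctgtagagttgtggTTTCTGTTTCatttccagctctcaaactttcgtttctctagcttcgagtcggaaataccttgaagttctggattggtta
Trim30a (chr7:104465144-104465263, minus strand): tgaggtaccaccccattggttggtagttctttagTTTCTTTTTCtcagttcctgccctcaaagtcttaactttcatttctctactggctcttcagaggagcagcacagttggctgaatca
Trim30d (chr7:104507800-104507919, minus strand): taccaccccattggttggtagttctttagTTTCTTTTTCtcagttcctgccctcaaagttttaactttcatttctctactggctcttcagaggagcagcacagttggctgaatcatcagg

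The core was found in the 300-base promoters of 6 of the 7 genes, and Trim6 was the one without it. It began 49 bases before the start site in Trim5, 29 before in Trim12c, 36 before at the first start site of Trim30a and 41 before in Trim30d, and 10 bases after the start site in Trim34a and Trim12a. Among all 32851 promoters of the table, 1131 (3.44%) held it. Such a match is a description of letters and was not tested as a binding site. Over aligned bases, the Trim30a and Trim30d promoters were 93.9% identical (277 of 295), those of Trim5 and Trim12c 94.3% and those of Trim5 and Trim12a 100% (241 aligned).

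This likeness extends into the transcripts of some of the genes and bears on their counts. Trim5 and Trim12c transcripts share an unbroken identical run of 236 bases, Trim5 and Trim12a one of 172, and Trim30a and Trim30d one of 275. The longest run that Trim6 shares with any of the others is 23 bases. Estimated counts were fractional in 11 libraries for Trim30a and Trim30d, in 7 for Trim5 and Trim12c and in 6 for Trim34a. The sums Trim12c plus Trim5, Trim30a plus Trim30d, and Trim34a plus Trim34b (a further gene of the cluster) were whole numbers, within 0.005, in 12 of 12 libraries. Reads were thus divided within these pairs, and the split between Trim5 and Trim12c or between Trim30a and Trim30d is uncertain. Dchs1 and Trim6 had whole counts in every library.

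Libraries held 13485479 to 15771655 counts. Control_3NC 2 stood apart: its median correlation with the other libraries was 0.948, against 0.974 to 0.984 for the rest. A list of 22 interferon response genes summed to 848 normalised CPM (counts scaled to library size, with TMM scaling) there and to 114 to 272 elsewhere. 9 macrophage and leukocyte genes summed to 688 there and to 43.5 to 73.5 elsewhere. Of these lists, 21 of 22 and 9 of 9 genes were highest in that library, and none was at 0 in it. 5 epididymis genes summed to 360 in knockdown 1, 266 in control_5NC 2 and 109 in control_5NC 3, and to 0.453 to 69.1 in the others. Germ cell (Ddx4, Sycp3, Prm1), Sertoli (Sox9, Wt1) and Leydig (Cyp17a1, Insl3) markers were present in every library, as the testis label states.

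Per transcript length, the 8 genes were modest to rare transcripts of the testis. Over the 12 libraries, the authors' FPKM (fragments scaled for transcript length and library size) averaged 2.14 for Trim6, 2.05 for Trim12c, 1.78 for Trim30a, 1.48 for Dchs1, 0.739 for Trim34a, 0.445 for Trim30d, 0.345 for Trim5 and 0.0317 for Trim12a. Trim6 thus stood at the 43.9th percentile of the table and Trim12a at the 8.86th. The Trim30a mean was set by 1 library: its median was 0.76 FPKM and its highest value 13.03 FPKM, in control_3NC 2.

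**Figure D1:**
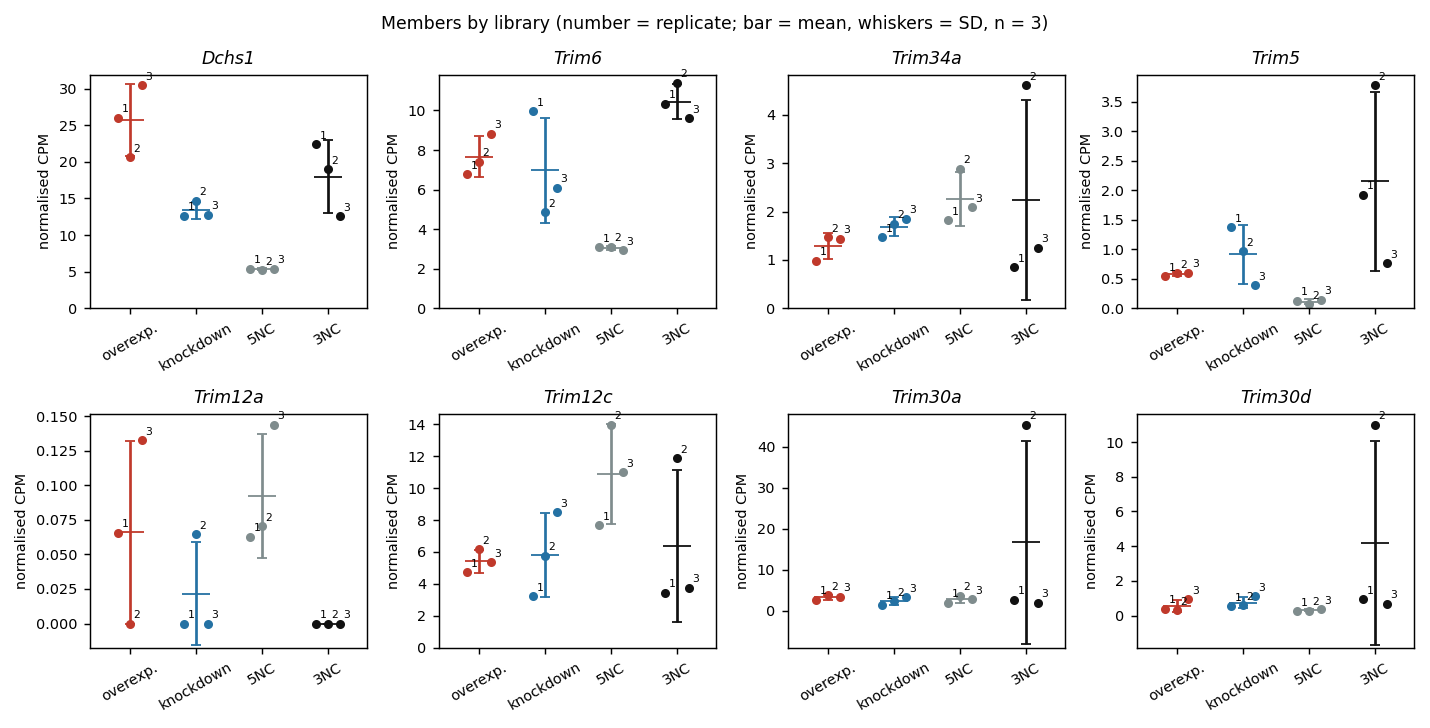
Normalised CPM (vertical axis) of the 8 genes in each of the 12 libraries, in overexpression, knockdown, control_5NC and control_3NC; points are libraries with their replicate number, the bar is the mean and whiskers the SD (n = 3 each). Dchs1, Trim6 and Trim5 sit lowest in control_5NC, and Trim30a and Trim30d are high in control_3NC 2 alone.

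Dchs1, the Dachsous ligand, had 26.0, 20.6 and 30.5 normalised CPM in the overexpression libraries, 12.6, 14.7 and 12.8 in knockdown, 5.40, 5.22 and 5.39 in control_5NC, and 22.4, 19.0 and 12.6 in control_3NC. All 3 overexpression libraries were above all 3 knockdown libraries. Control_3NC overlapped both of these groups. The control_5NC libraries lay below all others, with a coefficient of variation of 1.90% from 86, 74 and 75 counts. So few counts in 3 libraries cannot show how uniform that group is. The order of the group means was overexpression (25.7 ± 4.94), control_3NC (17.99 ± 4.99), knockdown (13.4 ± 1.16) and control_5NC (5.34 ± 0.102; SD, n = 3 each).

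Between overexpression and knockdown, Dchs1 differed by 0.94 ± 0.19 on the log2 scale (± SE of the fit), a 1.92-fold higher level. The unadjusted p was 0.000352, the 11th smallest of 16395 genes, but edgeR's quasi-likelihood test with Benjamini-Hochberg adjustment gave an adjusted p of 0.524. The difference thus did not pass the threshold of 0.05. DESeq2, run as an alternative, gave 0.94 ± 0.22 and an adjusted p of 0.0203, and limma-voom 0.93 ± 0.20 and 0.911; the adjusted p over all alternatives ranged from 0.0203 to 1. Against control_3NC, Dchs1 was 0.52 ± 0.19 higher in overexpression (adjusted p = 0.696) and 0.43 ± 0.19 lower in knockdown (log2 -0.43, adjusted p = 0.559), both by edgeR's quasi-likelihood test. Without control_3NC 3, the library with the least Dchs1 of its group, these differences were 0.31 in overexpression and -0.63 in knockdown. Without control_3NC 1, the library with the most, they were 0.70 and -0.24.

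Given as a description, Dchs1 was 2.27 ± 0.21 (log2) higher in overexpression than in control_5NC and 1.32 ± 0.21 higher in knockdown than in control_5NC. It was -1.75 ± 0.21 in control_5NC relative to control_3NC. These comparisons share libraries with those above, and no p is given because the control_5NC values led to the choice of the gene.

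Trim6, which in human cells makes free ubiquitin chains that act in interferon signalling, had 6.77, 7.42 and 8.82 normalised CPM in overexpression, 9.96, 4.86 and 6.09 in knockdown, 3.08, 3.11 and 2.95 in control_5NC, and 10.3, 11.4 and 9.60 in control_3NC. Control_5NC was again the lowest, with counts of 41 to 49 against 75 to 182 in the other 9 libraries. All overexpression libraries were below all control_3NC libraries, whereas knockdown spanned the range between them. The difference was -0.45 ± 0.22 in overexpression and -0.58 ± 0.22 in knockdown, each relative to control_3NC, with adjusted p-values of 0.696 and 0.559 in edgeR's quasi-likelihood test. Between overexpression and knockdown it was 0.14 ± 0.22 (adjusted p = 1), and -0.07 without knockdown 2. As a description, Trim6 was -1.78 ± 0.24 in control_5NC relative to control_3NC.

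Trim6 differs from Dchs1 in its order of levels. Its highest group mean was control_3NC (10.4 ± 0.900), followed by overexpression (7.67 ± 1.05), knockdown (6.97 ± 2.66) and control_5NC (3.04 ± 0.0842; SD, n = 3 each). The 2 middle groups overlapped. Over the 12 libraries, Trim6 and Dchs1 had a Pearson r of 0.81 (log2 normalised CPM), a value in which the 3 low control_5NC libraries take part.

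Trim5 is the mouse gene that bears the name of the primate restriction factor. Its estimated counts were 8.24, 8.15 and 9.09 in overexpression, 21.5, 15 and 6.04 in knockdown, 2, 1 and 2 in control_5NC, and 29, 60.4 and 11.4 in control_3NC. The 5 counts of control_5NC in all lay below every other library, and overexpression was below all control_3NC libraries. As normalised CPM the group means were 0.581 ± 0.0343 in overexpression, 0.912 ± 0.494 in knockdown, 0.113 ± 0.0381 in control_5NC and 2.16 ± 1.52 in control_3NC (SD, n = 3 each).

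Relative to control_3NC, Trim5 was -1.90 ± 0.56 in overexpression (unadjusted p = 0.00504, adjusted p = 0.696) and -1.21 ± 0.53 in knockdown (adjusted p = 0.559) in edgeR's quasi-likelihood test. Without control_3NC 2, where Trim5 was highest, the differences were -1.22 ± 0.52 in overexpression and -0.53 ± 0.49 in knockdown. Between overexpression and knockdown it was -0.69 ± 0.58 (adjusted p = 1). As a description, control_5NC stood at -4.14 ± 0.70 relative to control_3NC, and overexpression at 2.24 ± 0.78 relative to control_5NC.

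Trim12c, a close relative of Trim5 that is reported to work with TRAF6 in mouse immune signalling, differed from it in control_5NC, which had the highest Trim12c mean and the lowest Trim5 mean of the 4 groups. Trim12c had 4.71, 6.16 and 5.37 normalised CPM in overexpression, 3.22, 5.77 and 8.48 in knockdown, 7.67, 13.98 and 11.003 in control_5NC, and 3.45, 11.9 and 3.76 in control_3NC. The control_5NC mean was 10.9 ± 3.16 (SD, n = 3), and its libraries overlapped knockdown 3 and control_3NC 2. Its differences from control_3NC were -0.24 ± 0.48 in overexpression and -0.14 ± 0.48 in knockdown (adjusted p = 0.898 and 0.928 in edgeR's quasi-likelihood test). Both turned positive without control_3NC 2, at 0.58 ± 0.36 in overexpression and 0.68 ± 0.36 in knockdown.

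Since reads were divided between Trim5 and Trim12c, their sum and the share of Trim5 in it were examined, a step chosen after seeing the data. Trim5 took 10.3%, 8.86% and 10.1% of the pair in overexpression, 29.9%, 14.4% and 4.41% in knockdown, 1.61%, 0.503% and 1.29% in control_5NC, and 35.8%, 24.2% and 16.97% in control_3NC. The share was lowest in control_5NC without overlap, and overexpression lay below all of control_3NC. The summed level did not follow it: the mean was 5.99 ± 0.750 normalised CPM in overexpression, 6.74 ± 2.14 in knockdown, 10.996 ± 3.13 in control_5NC and 8.52 ± 6.19 in control_3NC (SD, n = 3 each).

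The pair as 1 unit was 0.36 ± 0.42 (log2) in control_5NC relative to control_3NC, where Trim5 alone had been at -4.14. It was -0.87 ± 0.43 in overexpression relative to control_5NC. The low Trim5 of control_5NC was thus a low share of a pair whose sum was not low. Trim12c made up most of the pair in every library, and at least 64.2% (control_3NC 1). The sum therefore cannot show whether Trim5 itself was low. In control_5NC the estimated counts of both genes were whole numbers. Without control_3NC 2, Trim5 and Trim12c ran against each other over 11 libraries, with a Pearson r of -0.90 (-0.43 with that library); their counts share the same pool of reads.

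**Figure D2:**
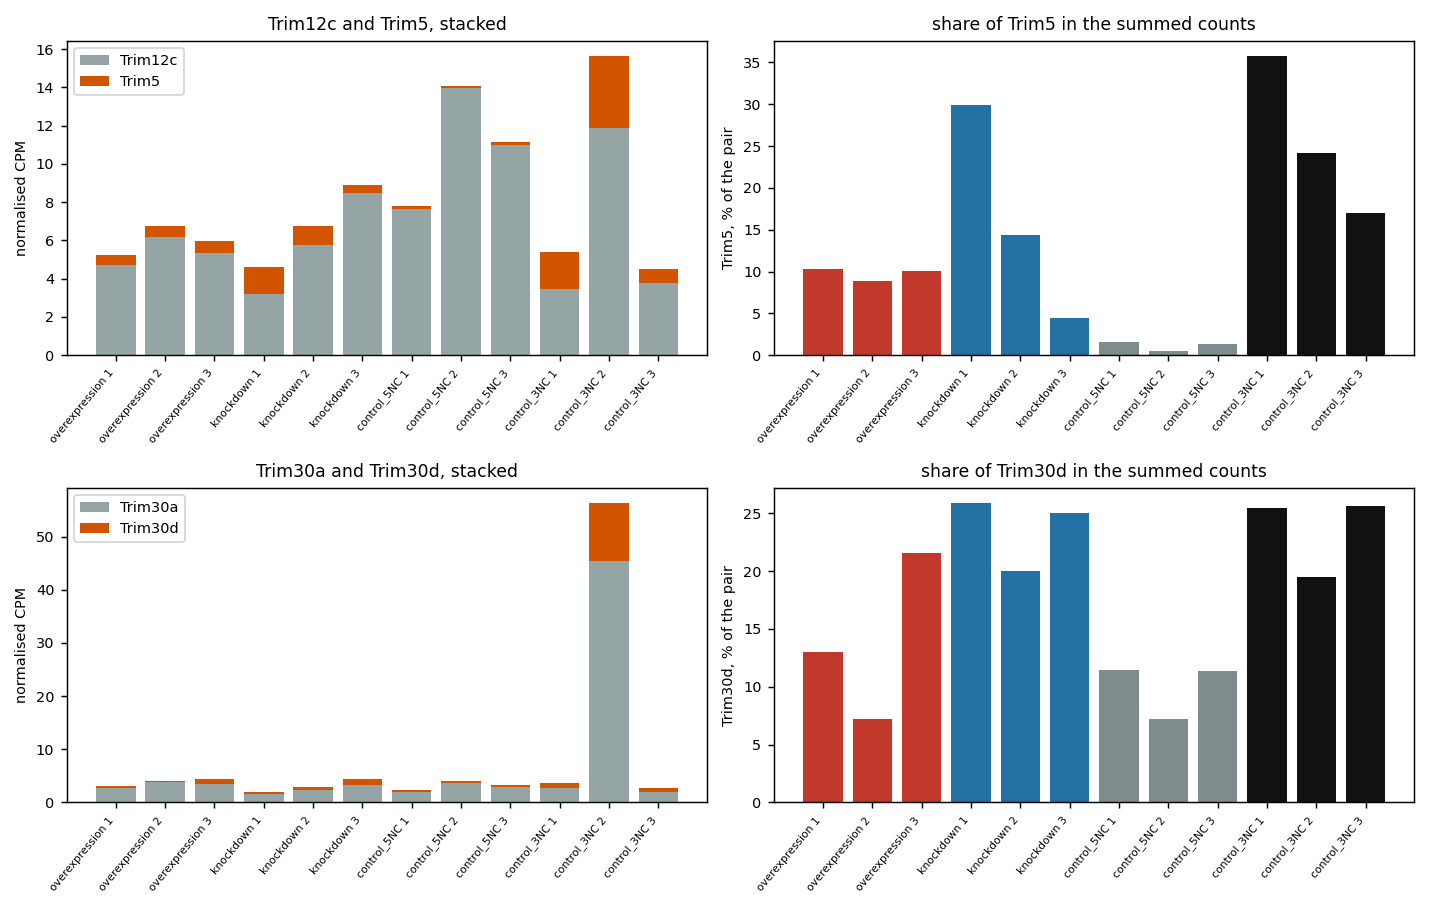
Left, stacked normalised CPM of Trim12c with Trim5 (top) and of Trim30a with Trim30d (bottom) in each library; right, the share in percent of Trim5 or of Trim30d in the summed counts, with libraries ordered overexpression, knockdown, control_5NC, control_3NC. The Trim5 share is 0.503% to 1.61% in control_5NC and 4.41% to 35.8% elsewhere.

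Trim12a, the shortest of the Trim5 relatives, was almost absent. It had 1, 0 and 2 counts in overexpression, 0, 1 and 0 in knockdown, 1, 1 and 2 in control_5NC, and 0 in each control_3NC library, 8 counts in all. No fold is given at this depth, and a difference between groups was not detectable.

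Trim30a, which interferon induces in mouse macrophages and which restrains Toll-like receptor signalling by removing TAB2 and TAB3, was level in 11 libraries and high in 1. It had 2.69, 3.81 and 3.48 normalised CPM in overexpression, 1.51, 2.38 and 3.35 in knockdown, 2.003, 3.67 and 2.87 in control_5NC, and 2.72, 45.4 and 2.01 in control_3NC. Control_3NC 2 was 11.9 times the next highest library, and the other 11 libraries overlapped across all 4 groups. Fitted with that library, Trim30a was -2.32 ± 1.03 in overexpression and -2.78 ± 1.06 in knockdown, each relative to control_3NC (adjusted p = 0.696 and 0.559 in edgeR's quasi-likelihood test). Without it, the values were 0.49 ± 0.34 in overexpression and 0.03 ± 0.34 in knockdown. In control_5NC relative to control_3NC it was -2.55 ± 1.05 with that library and 0.26 ± 0.34 without it.

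Trim30d, known in mouse for restricting a tick-borne flavivirus, followed at lower levels. It had 0.402, 0.297 and 0.960 normalised CPM in overexpression, 0.529, 0.597 and 1.12 in knockdown, 0.260, 0.284 and 0.367 in control_5NC, and 0.929, 10.995 and 0.694 in control_3NC. Control_3NC 2 was 9.84 times the next highest library. The control_5NC libraries had the lowest mean, 0.304 ± 0.0561 (SD, n = 3), from about 4 to 5 counts each, and overlapped overexpression.

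Relative to control_3NC, Trim30d was -2.94 ± 0.98 in overexpression and -2.52 ± 0.94 in knockdown (adjusted p = 0.696 and 0.559 in edgeR's quasi-likelihood test), and -0.56 ± 0.52 and -0.13 ± 0.50 without control_3NC 2. Its share of the Trim30a and Trim30d sum was 13.04%, 7.23% and 21.6% in overexpression, 25.9%, 20.02% and 25% in knockdown, 11.5%, 7.20% and 11.3% in control_5NC, and 25.5%, 19.5% and 25.7% in control_3NC. The share in control_3NC 2 was thus the lowest of its group while both genes were at their highest. The r between Trim30a and Trim30d was 0.86 over 12 libraries and 0.05 without control_3NC 2.

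Trim34a, an interferon-inducible gene whose human counterpart acts beside TRIM5 on retroviral capsids, had 0.986, 1.47 and 1.44 normalised CPM in overexpression, 1.47, 1.75 and 1.85 in knockdown, 1.82, 2.89 and 2.09 in control_5NC, and 0.845, 4.61 and 1.25 in control_3NC. Its control_5NC mean (2.27 ± 0.555) was the highest of the 4, beside 2.24 ± 2.07 in control_3NC (SD, n = 3 each), and the libraries of these groups overlapped. Relative to control_3NC it was -0.78 ± 0.51 in overexpression (adjusted p = 0.730) and -0.40 ± 0.50 in knockdown (adjusted p = 0.771, edgeR's quasi-likelihood test). Without control_3NC 2 these values were 0.32 ± 0.33 in overexpression and 0.70 ± 0.32 in knockdown. Trim34a and Trim12c varied together over the libraries (r = 0.84, and 0.86 without control_3NC 2).

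**Figure D3:**
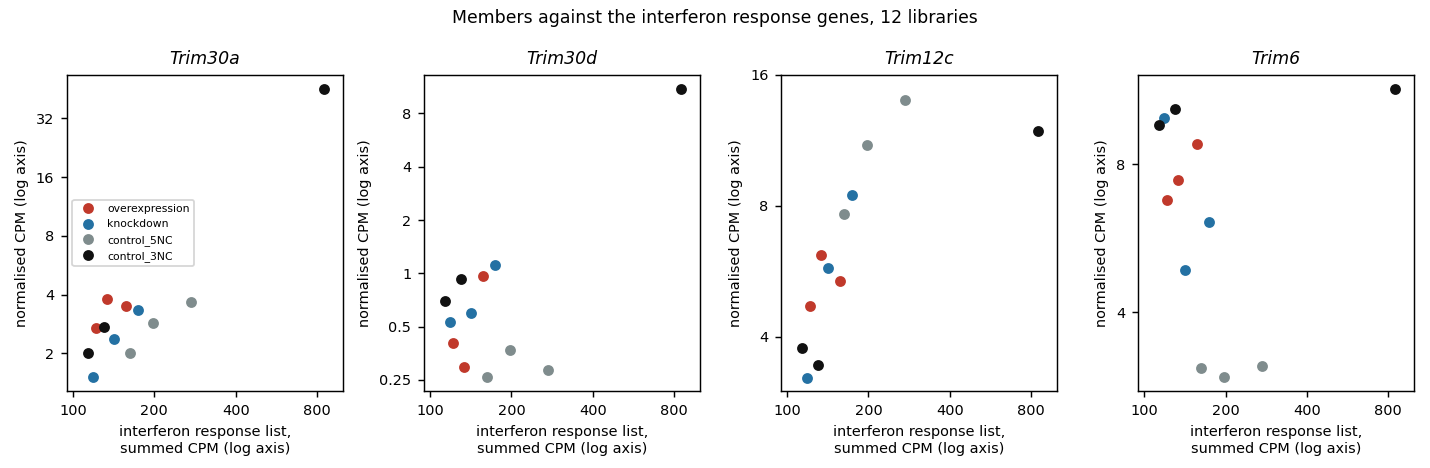
Normalised CPM of Trim30a, Trim30d, Trim12c and Trim6 (vertical, log axis) against the summed normalised CPM of 22 interferon response genes (horizontal, log axis) in the 12 libraries, coloured by group. Control_3NC 2, at 848 summed CPM, is far right in each panel. The control_5NC libraries, at 163 to 272 summed CPM, have the lowest Trim6.

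The interferon and leukocyte sums were highest in control_3NC 2. So were Trim30a, Trim30d, Trim34a, Trim5 and, by 1.101 times the next library, Trim6. The part of interferon and leukocytes in these levels was not tested. Apart from that library, the interferon sum was 122 to 158 in overexpression, 118 to 174 in knockdown, 163 to 272 in control_5NC and 114 to 130 in control_3NC. Group means of Trim5, Trim6 and Trim30d were lowest in control_5NC, where Trim30d overlapped overexpression. Such control_5NC values led to the choice of the genes, and their relation to the interferon sum was not tested. Within the remaining 11 libraries Trim12c was highest where this sum was highest, in control_5NC 2. Dchs1 was within the range of its own group in control_3NC 2, and its differences from control_3NC without that library were 0.56 ± 0.21 in overexpression and -0.39 ± 0.21 in knockdown.

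Across the tested comparisons, none of the 7 genes passed the threshold in edgeR's quasi-likelihood test with Benjamini-Hochberg adjustment. For overexpression against control_3NC the count was 0 of 7, beside 1 of 16395 genes (0.0061%), with 3 of the 7 and 1097 of all genes at an unadjusted p under 0.05. The 3 became 5 without control_3NC 1, and 2 without control_3NC 2 or without overexpression 3. The 1097 of all genes moved too, to 2561 without control_3NC 1, 719 without control_3NC 2 and 547 without overexpression 3. For knockdown against control_3NC it was 0 of 7, beside 3 of 16395 genes (0.0183%), with 5 of the 7 and 1424 of all genes at an unadjusted p under 0.05. The 5 became 1 without control_3NC 2 (1010 of all genes) and 1 without knockdown 2 (816). They became 2 without knockdown 1 (753 of all genes) or knockdown 3 (957), and 3 without control_3NC 1 (2995). With the 6 compared libraries alone there were 0 (831 of all genes). DESeq2 gave 2 (1413 of all genes), limma-voom 1 (1156) and a block for replicate number 2 (1999). For overexpression against knockdown it was 0 of 7, beside 0 genes (0%), with 1 of the 7, Dchs1, and 343 of all genes at an unadjusted p under 0.05. The 1 became 2 without knockdown 1, where the 343 of all genes became 220.

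DESeq2 called 14 genes (0.0914%) for overexpression against control_3NC, 23 (0.141%) for knockdown against control_3NC and 12 (0.0738%) for overexpression against knockdown. Of the 7 genes it called 1, Dchs1 in the last of these, and it gave no adjusted p to Trim30a and Trim30d, nor to Trim5 for overexpression against control_3NC. Libraries of overexpression and control_3NC did not overlap for 2 of the 7 genes, Trim6 and Trim5, where 6.8% of all genes did not overlap. Knockdown and control_3NC overlapped for all 7, where 13% of all genes did not. Overexpression and knockdown did not overlap for Dchs1, higher in overexpression, and Trim34a, lower in overexpression by under 0.01 normalised CPM at the nearest point, where 10.6% of all genes did not.

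**Figure D4:**
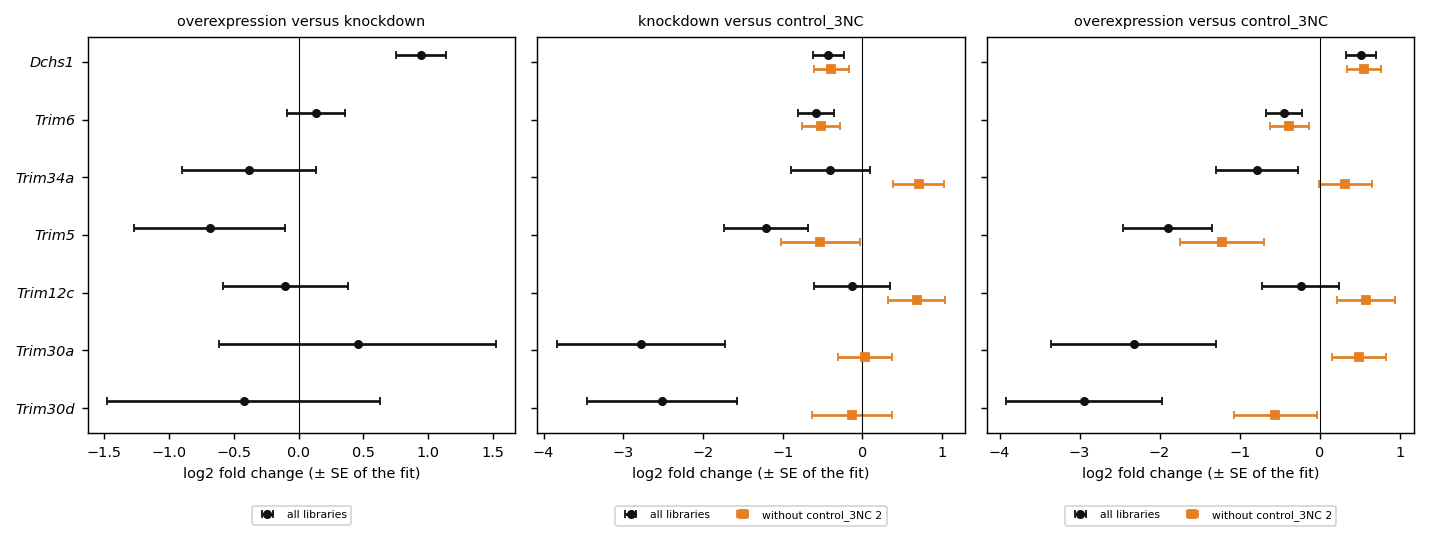
Log2 fold changes (horizontal axis, ± SE of the fit) of the 7 tested genes for the comparisons without control_5NC, with all libraries (black) and without control_3NC 2 (orange). Dchs1 is 0.94 between overexpression and knockdown, and without that library Trim30a and Trim30d relative to control_3NC are 0.03 and -0.13 in knockdown and 0.49 and -0.56 in overexpression.

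The low control_5NC values used to choose the genes were compared with those of all genes. All 3 control_5NC libraries lay below all 9 others for 3 of the 7 genes, Dchs1, Trim6 and Trim5, and for 3.01% of all 16395 genes. They lay above all others for 0 of the 7 and for 3.06% of all genes. Since these values led to the choice, nothing is read from the counts. As control_5NC minus the mean of the other 3 groups (log2 normalised CPM), Trim5 was at -2.16, Dchs1 at -1.74, Trim6 at -1.37, Trim30d at -1.27, Trim30a at -0.39, Trim34a at 0.48 and Trim12c at 0.95. The values of Trim30d and Trim30a include control_3NC 2, where both were highest, and their control_5NC libraries overlapped other groups. Control_5NC libraries also overlapped other groups for Trim34a, which lies between Trim6 and Trim5, and for Trim12c, which lies past Trim12a and Trim34b.

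The surrounding 2976 kb, from 500 kb before Hbb-bs and Hbb-bt to 500 kb past Dchs1, held 84 genes of the table, 42 of them olfactory receptors. Of these, 33 were tested and 26 were not among the 8 genes. All control_5NC libraries lay below all others for 4 of these 26 (15.4%, beside 3.01% of all genes) and above for 0. The 4 were Hbb-bs, Hbb-bt, Ubqln5 and Ubqlnl, and all lie on the beta-globin side of the Trim group, where 6 genes were tested. Hbb-bs and Hbb-bt also served to set the window, which was drawn with earlier results known. The share is therefore partly fixed by the choice, and nothing is read from it. Of the 16 tested between the Trim group and Dchs1, none lay below or above, and their median difference was -0.09. None of the 26 passed edgeR's quasi-likelihood test in any of the 3 comparisons without control_5NC, and the lowest adjusted p was 0.559.

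Dchs1, whose control_5NC values led to its choice, stood apart from its flanking genes in those values. The contrast was thus partly fixed by the choice, and nothing is read from it. Tpp1, a lysosomal peptidase, was at 0.17, and Mrpl17, a mitochondrial ribosomal protein, at -0.17 in control_5NC relative to the other groups, against -1.74 for Dchs1. Further past Dchs1, Gvin1, an interferon-inducible GTPase, was at -1.93 and Gm4070 at 1.14. Control_3NC 2, at 28.1 (Gvin1) and 73.4 normalised CPM (Gm4070), enters these values. For neither gene did all control_5NC libraries lie below or above all others. Beside the Trim group, Ubqlnl was at -0.31 and Gm4887 at 0.57. Between the Trim group and Dchs1, Hpx (hemopexin, which binds haem) was at -0.74 and Gm5901 at -0.43. Control_5NC overlapped other libraries for Gm4887, Hpx and Gm5901. Hpx had 77 counts in all, and control_3NC 1 and 3 (0.0663 and 0.0676 normalised CPM) lay below control_5NC.

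The adult beta-globin genes Hbb-bs and Hbb-bt were the extremes of the window. Hbb-bs averaged 4.70 ± 4.31 normalised CPM in overexpression, 4.46 ± 2.82 in knockdown, 0.0247 ± 0.0428 in control_5NC and 11.1 ± 4.42 in control_3NC (SD, n = 3 each). Hbb-bt averaged 1.003 ± 0.759 in overexpression, 1.28 ± 0.818 in knockdown, 0.0240 ± 0.0416 in control_5NC and 2.74 ± 1.62 in control_3NC. Hbb-b1, which has no position in the annotation used, went the other way, with 15.4 ± 5.44 in overexpression, 11.8 ± 2.08 in knockdown, 27.6 ± 6.87 in control_5NC and 8.52 ± 1.22 in control_3NC.

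Hbb-b2 was likewise highest in control_5NC, at 5.92 ± 2.09 normalised CPM. Mice carry different adult beta-globin haplotypes: one holds Hbb-bs and Hbb-bt, and another holds Hbb-b1 and Hbb-b2. In control_5NC nearly all counts fell on the second set of symbols. The erythroid genes Hba-a1, Hba-a2 and Alas2 together stood at 48.8 to 56.6 normalised CPM in control_5NC, within the 33.2 to 65.7 of the other libraries. Haplotypes were not determined, and the part of the haplotype in the Dchs1 and Trim levels was not tested.

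**Figure D5:**
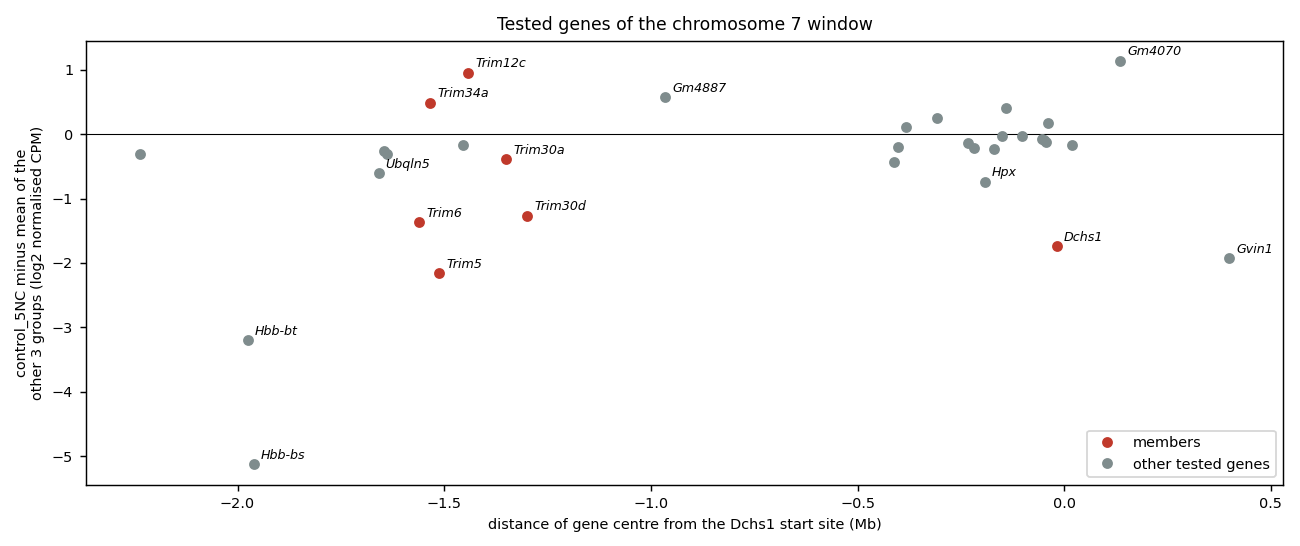
Control_5NC minus the mean of the other 3 groups (vertical axis, log2 normalised CPM) for each tested gene with a position, against distance in Mb from the Dchs1 start site (horizontal axis). Dchs1, chosen with its control_5NC values known, is at -1.74 among neighbours near 0. Hbb-bs (-5.13) and Hbb-bt (-3.20) lie at the beta-globin end, and the Trim genes scatter from -2.16 to 0.95.

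Genes whose levels most resembled those of the 7 tested genes over the 12 libraries, control_5NC included, were found by Pearson r on log2 normalised CPM among genes of at least 1 mean CPM. Cachd1 (r = 0.94), Apoc2 (0.93), Ell2 (0.92), Coq10b (0.92) and Spire1 (0.91) were most like Dchs1. Cachd1 averaged 8.01 ± 0.995 normalised CPM in overexpression, 6.60 ± 0.321 in knockdown, 5.14 ± 0.156 in control_5NC and 7.63 ± 1.21 in control_3NC (SD, n = 3 each), a narrower span than that of Dchs1. Hbb-bs (0.95), Akip1 (0.91) and Man2a2 (0.90) were most like Trim6, and Hbb-bt (0.90), Hbb-bs (0.89) and Prss23 (0.89) were most like Trim5. The genes named for Trim6 and Trim5 all lie on chromosome 7. Over all 7 tested genes, 9 of 23 such entries (39.1%) did, beside 7.73% of the genes considered. Control_5NC values enter each r, and the cause of this share was not tested.

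The other Trim genes resembled different genes. Trim30a was closest to Cyfip1 (0.99), Gla (0.99) and Ctss (0.98), the last a lysosomal protease of macrophages that reached 203 normalised CPM in control_3NC 2. Trim30d was closest to Nfkb1 (0.96), Csf2rb2 (0.96) and Mocos (0.95). Trim34a was closest to Uba7 (0.95), which activates the ubiquitin-like protein ISG15, Stxbp3 (0.95) and Chsy1 (0.95). Trim12c was closest to Synj1 (0.93), Iigp1 (0.92), an interferon-inducible GTPase, and Acat1 (0.92). These r values include control_3NC 2, where Trim30a, Trim30d and Trim34a were highest, and were not computed without it. Spearman's rho, which uses ranks alone, ran from 0.83 (Trim30d with Csf2rb2) to 0.96 (Trim30a with Cyfip1 and Gla) for these genes.

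The wider families gave no calls in these comparisons. Of 60 further listed Trim genes, 46 were tested and 0 passed edgeR's quasi-likelihood test in any of the 3 comparisons, with 0 at an unadjusted p under 0.05. Their median log2 differences were 0.00 in overexpression and -0.06 in knockdown, each relative to control_3NC, against -0.02 and -0.03 for all genes. The smallest p-values belonged to Trim8, Trim2 and Trim25 (overexpression against control_3NC), Trim41, Trim25 and Trim7 (knockdown against control_3NC), and Trim29, Trim37 and Trim65 (overexpression against knockdown). All control_5NC libraries lay below all others for 3 of the 46 (6.52%, beside 3.01% of all genes), Trim9, Trim29 and Trim38, and above for 1 (2.17%, beside 3.06%), Trim32. Trim38, which dampens innate immune signalling, averaged 4.38 ± 1.14 normalised CPM in overexpression, 4.32 ± 1.17 in knockdown, 2.11 ± 0.346 in control_5NC and 5.14 ± 1.76 in control_3NC (SD, n = 3 each).

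Of the partners of Dchs1, the cadherins of the Fat family and the planar cell polarity genes, 21 of 24 listed were tested and 0 passed edgeR's quasi-likelihood test in any of the 3 comparisons. At an unadjusted p under 0.05 there were 1 higher and 1 lower gene in each comparison with control_3NC, and 2 lower genes in overexpression against knockdown. Among all 16395 genes, 1097 were at that level for overexpression and 1424 for knockdown against control_3NC, and 343 for overexpression against knockdown. Fat4, the receptor of Dchs1, averaged 1.42 ± 0.185 FPKM in overexpression, 1.49 ± 0.110 in knockdown, 1.02 ± 0.163 in control_5NC and 1.04 ± 0.172 in control_3NC (SD, n = 3 each). Its log2 difference from control_3NC was 0.46 ± 0.16 in overexpression (adjusted p = 0.696) and 0.52 ± 0.16 in knockdown (adjusted p = 0.559) in edgeR's quasi-likelihood test. Fat4 differed by less than its SD between the control groups, where Dchs1 averaged 0.513 FPKM in control_5NC and 1.71 FPKM in control_3NC.

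The log2 differences of the planar polarity genes Vangl2 and Vangl1 in overexpression relative to knockdown were -0.70 ± 0.24 and -1.02 ± 0.37 (adjusted p = 1 each in edgeR's quasi-likelihood test). Fat1 was the most abundant Fat cadherin, at 2.67 to 3.03 FPKM by group mean. Of 17 genes that work with TRIM5 or TRIM30 or restrict retroviruses, 16 were tested and 0 passed in any of the 3 comparisons. The smallest p-values were those of Samhd1, Trim25 and Bst2 (overexpression against control_3NC), Ube2w, Trim25 and Samhd1 (knockdown against control_3NC), and Ube2w, Ube2n and Tab3 (overexpression against knockdown). Tab3, a target of Trim30a, averaged 17.7 ± 2.33 normalised CPM in overexpression and 16.1 ± 0.813 in knockdown (SD, n = 3 each).

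Of the 22 interferon response genes 0 passed the same test in any of the 3 comparisons. 13 were lower at an unadjusted p under 0.05 in overexpression than in control_3NC, beside 1097 of all 16395 genes in either direction. In knockdown against control_3NC 13 were lower, beside 1424 of all genes. Between overexpression and knockdown 0 differed at that level, beside 343 of all genes. Their median log2 differences from control_3NC were -2.27 in overexpression and -2.21 in knockdown, where Trim30a was at -2.32 and -2.78. Control_3NC 2 was the highest library for 21 of the 22 and enters all of these values. No value without that library is given for the list.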

How the data were processed

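The deposited table gives, per the file headers, an estimated count per gene for each library, and a further column of values per library that behaves as FPKM; the unit FPKM of these deposited values was inferred from the values. Reads were placed on mm10, as the submitters' processing notes name it. For the aligner, counter, annotation and strand setting, the sources used here give nothing, so overlapping and antisense genes cannot be told apart. A further 18 columns belong to 9 other samples and were left unused. lncRNA8276 itself was not analysed here.

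The estimated counts, rounded to integers, were fitted in R 4.3.3 with edgeR 4.0.16: filterByExpr (minimum count 10), which left 16395 of 20788 genes, TMM scaling, and 1 robust quasi-likelihood model of group means over all 12 libraries. Benjamini-Hochberg adjustment ran over all tested genes, with 0.05 as the threshold. The script was tested on simulated data. DESeq2 1.42.0, limma-voom (limma 3.58.1) and other settings were alternatives. Log2 values of single libraries used a prior count of 2. Library totals of 13485479 to 15771655 counts and the number of libraries limit the precision.

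All 8 genes are named, together with the 3 (5 for Dchs1) genes of highest Pearson r to each of the 7 tested ones, the beta-globin genes, the flanking tested genes, the neighbours with the largest control_5NC difference and the 3 genes of smallest p in each list. The genes and lists were chosen with earlier results of these data known. The main fit did not pair libraries by replicate number. Deviations from the group means of same-numbered libraries had correlations from -0.093 to 0.184, and in no comparison were all 3 above 0.1. Such values, from groups of 3, cannot exclude a pairing.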

Additional observations from a re-analysis of the deposited data

How the results depend on the processing

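Of 393 values of the 7 tested genes under other settings, 377 kept their sign, 16 turned and 1 passed the threshold (Dchs1 with DESeq2). Of the 16, 3 were Trim34a in control_5NC relative to control_3NC, at 0.01 with all libraries and -0.37 to 1.12 with 1 left out. Trim30d was at -1.41 in control_5NC relative to control_3NC without control_3NC 2. Leaving out 1 library in turn turned some directions: Trim12c ranged from -0.54 to 0.58 in overexpression and from -0.51 to 0.68 in knockdown relative to control_3NC, and from -0.39 to 0.27 in overexpression relative to knockdown. Relative to control_3NC, Trim30a ranged from -2.85 to 0.49 in overexpression, from -3.30 to 0.033 in knockdown and from -3.08 to 0.26 in control_5NC, and Trim34a from -1.17 to 0.32 in overexpression and from -0.78 to 0.70 in knockdown. Except for Trim12c between overexpression and knockdown, the highest of these values came without control_3NC 2. Trim6 ranged from -0.068 to 0.49 in overexpression relative to knockdown. With similar pairs summed, chosen after seeing the data, Trim30a plus Trim30d was 0.29 in overexpression relative to knockdown. Trim12c plus Trim5 was -0.87 in overexpression relative to control_5NC and 0.36 in control_5NC relative to control_3NC. These signs were opposite to those of Trim30d and of Trim5 alone.

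Counts of genes past the threshold moved with the tool. For knockdown against control_3NC they were 23 with DESeq2, 0 with the 6 compared libraries alone and 1 to 9 with 1 library left out, beside 3. For overexpression against control_3NC they were 14 with DESeq2, 0 with limma-voom, 0 with the 6 libraries alone and 1 to 5 with 1 library left out, beside 1. For overexpression against knockdown they were 12 with DESeq2, 1 of them Dchs1, and 0 to 2 with 1 library left out, beside 0. With a replicate block the counts were 3, 1 and 0 in the same order of comparisons, and Dchs1 was at 0.94 between overexpression and knockdown (adjusted p = 0.568, edgeR). The cause of these changes was not tested. At under 10 counts a library, Trim5, Trim12a and Trim30d are limited by depth in control_5NC. The same holds for Trim12a in every library and for Trim5 in all of overexpression and in knockdown 3. It also holds for Trim30d in overexpression 1 and 2 and knockdown 1 and 2, so the tested comparisons are limited too.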
